A study of Mus musculus with 26 samples.

Results

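The subject is a set of 10 genes that encode transcription factors of the pancreatic islet, Mafa, Pdx1, Nkx2-2, Nkx6-1, Neurod1, Pax6, Isl1, Foxa2, Rfx6 and Insm1. They were taken by symbol from a table of 13641 genes, and each symbol was found once, so all 10 of 13641 genes are described. Islets of C57BL/6J mice were compared at 2 ages: adult islets at 2.5 months, and neonatal islets at postnatal day 5, which had been divided into small and large ones. The labels give no further allele or agent, and the animals are described by strain and age alone. Each library was made from the total RNA of 30 to 50 islets picked by hand, with ribosomal RNA removed, so a library holds endocrine cells together with whatever vessels, stroma or exocrine tissue came with the islets. There were 6 adult, 9 neonatal small and 11 neonatal large libraries in 3 labelled batches. Batch 2 held 4 adult, 3 small and 4 large libraries, batch 3 held 2 adult, 2 small and 3 large ones, and batch 1 held 4 small and 4 large ones and no adult one. The library names of the batch 2 adults begin with M in replicates 1 and 2 and with F in replicates 3 and 4. What these letters stand for is not given, and whether levels follow them was not tested. The labels do not say whether libraries came from separate animals, so p-values measure the spread between libraries, which may be partly technical.

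Islet endocrine cells arise in the embryo from pancreatic progenitors that switch on a cascade of transcription factors, and many of these factors stay on for life to hold each hormone cell to its type. Pdx1, Nkx6-1 and Mafa are best known in the insulin-producing β cell, while Neurod1, Isl1, Pax6, Insm1, Rfx6, Nkx2-2 and Foxa2 also act in the glucagon-producing α cell or in other endocrine cells. After birth the rodent β cell stops dividing so often and learns to release insulin in proportion to glucose, a change usually described as maturation.

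The values are FPKM, fragment numbers scaled to gene length in kilobases and to library size in M (mega), as the authors deposited them, so levels of different genes can be set side by side. Whole fragment numbers could be recovered from the FPKM for 13620 of the 13641 genes, to within 0.03 of a fragment. Summed over these genes, a library held 13.56 M to 27.4 M fragments, with 21.09 M to 22.56 M in the adult libraries of batch 2 and 14.19 M to 15.1 M in those of batch 3. Every member was covered by at least 1025 fragments in every library, so counting error is small beside the spread between libraries. The tissue label was checked against marker lists: 7 β cell markers summed to 128554 to 180681 FPKM in adult libraries and 89688 to 142646 FPKM in neonatal ones. Adult replicate 1 and neonatal large replicate 14 stood apart in acinar markers, with 3995 and 3513 FPKM summed over 8 genes, against a median of 108 FPKM in adult and 57.3 FPKM in neonatal libraries.

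All 10 factors were expressed in every library. In adult islets Mafa stood highest at 130 ± 15 FPKM (SD, n = 6), followed by Nkx6-1 at 110 ± 8.44 and Pdx1 at 90.2 ± 18.8 FPKM. Next came Neurod1 at 71.1 ± 8.79, Insm1 at 70.5 ± 16.2, Nkx2-2 at 59.3 ± 3.59 and Pax6 at 57 ± 8.79 FPKM. Rfx6 at 34.8 ± 13.8, Isl1 at 31.3 ± 10.5 and Foxa2 at 24.1 ± 7.65 FPKM were the lowest. Within single adult libraries 3 neighbours in this order kept their places every time: Nkx6-1 was above Pdx1, Pax6 above Rfx6, and Isl1 above Foxa2 in each of the 6 libraries, while the other neighbours changed places in at least 2.

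The order at postnatal day 5 differed from the adult one in its middle and at its foot, and in large islets also at its top. In small islets Mafa had 166 ± 39.7, Nkx6-1 156 ± 28.6 and Pdx1 140 ± 26.2 FPKM (SD, n = 9), and in large islets Pdx1 had 131 ± 14.1, Mafa 128 ± 29.5 and Nkx6-1 123 ± 17.8 FPKM (SD, n = 11). These 3 genes exchanged places between libraries, and each was above Nkx2-2, the fourth in both sizes, by its mean. Nkx2-2 lay above Insm1 in 2 of 6 adult libraries, in 6 of 9 small ones and in all 11 large ones. Rfx6 lay above Isl1 in 4 of 6 adult libraries, whereas in neonatal islets it was the lowest of the 10 by its mean, at 34.4 ± 5.83 FPKM in small and 31.9 ± 5.71 FPKM in large islets. Neurod1 varied the least over the 26 libraries, by 1.58-fold between its highest and lowest library, and Foxa2 the most, by 2.83-fold.

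**Figure D1:**
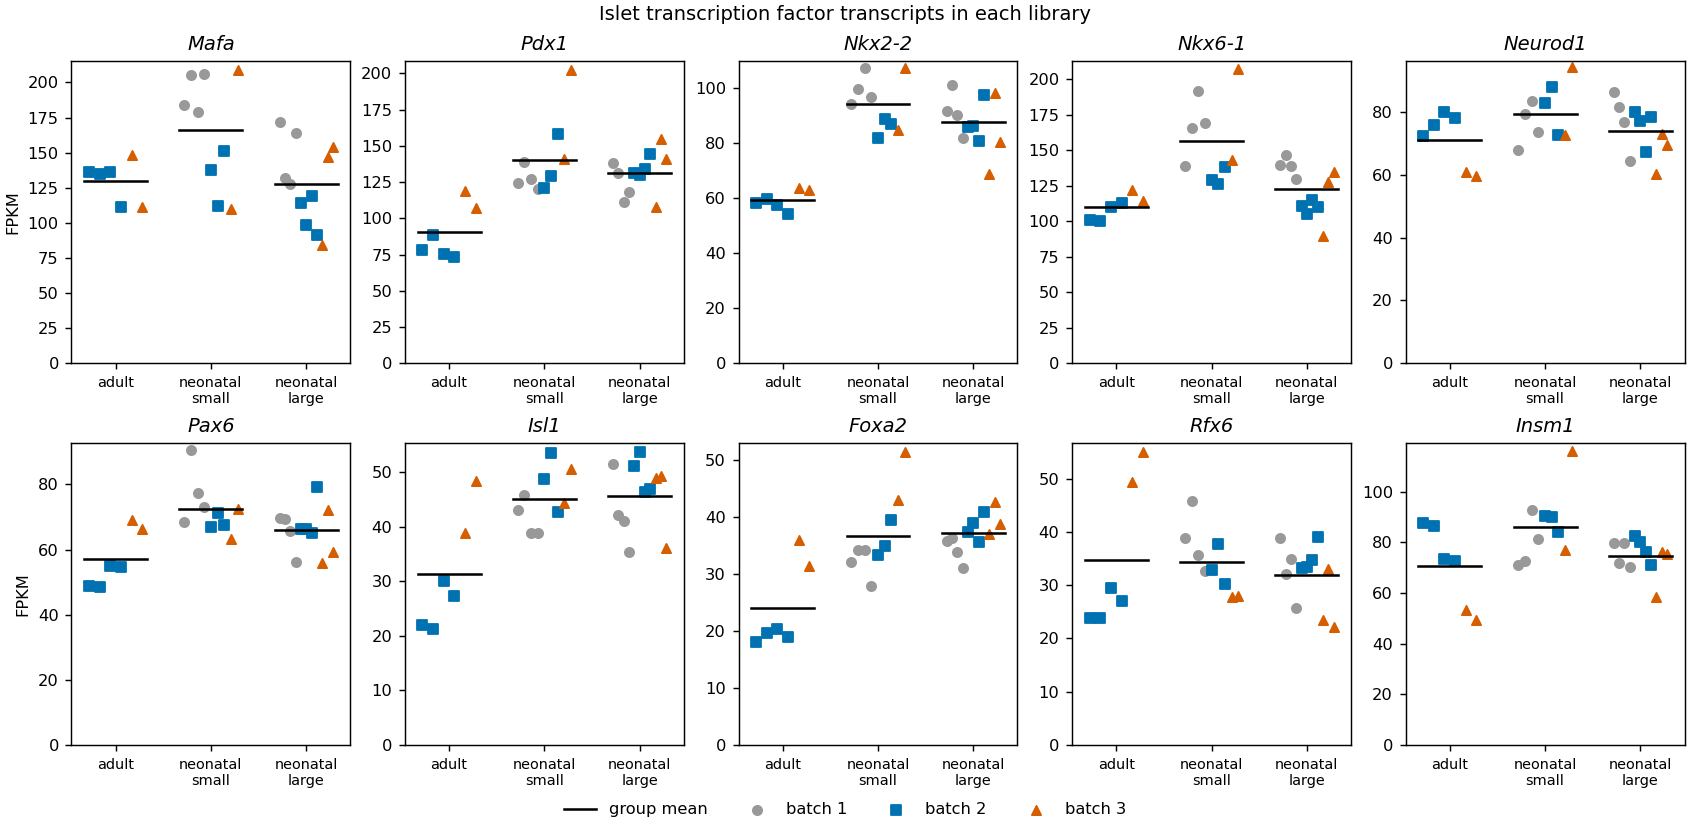
FPKM of the 10 factors in each of the 26 libraries (points; batch 1 circles, batch 2 squares, batch 3 triangles) for adult, neonatal small and neonatal large islets, with black lines at group means; each vertical axis starts at 0. Adult Nkx2-2 lies below every neonatal library, and in Rfx6 the adult libraries of batch 3 lie above every other library and those of batch 2 below all neonatal ones of batch 2.

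The comparison of adult with neonatal islets asked whether these factors were made at the same level at both ages. Between adult and neonatal islets 7 of the 10 factors fell and none rose: Foxa2, Pdx1, Isl1, Nkx2-2, Insm1, Pax6 and Nkx6-1. Mafa, Neurod1 and Rfx6 did not pass the test, which was limma on log2(FPKM + 1) with batch as a term and p adjusted over the 13402 genes kept, called at 0.05. Of all genes kept, 67.9% were called, 46.8% lower and 21.1% higher, so a called gene was the rule rather than the exception in this comparison. The direction of that background depended on the scaling: as deposited 6272 genes were lower and 2824 higher, against 4475 and 4664 after median-of-ratios rescaling, where 4 members were called, all lower. The median difference of the 10 factors was -0.25 on the log2 scale, beside -0.16 for all genes. In tissue RNA of this kind, fewer cells of a type and less RNA per cell cannot be told apart.

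**Figure D2:**
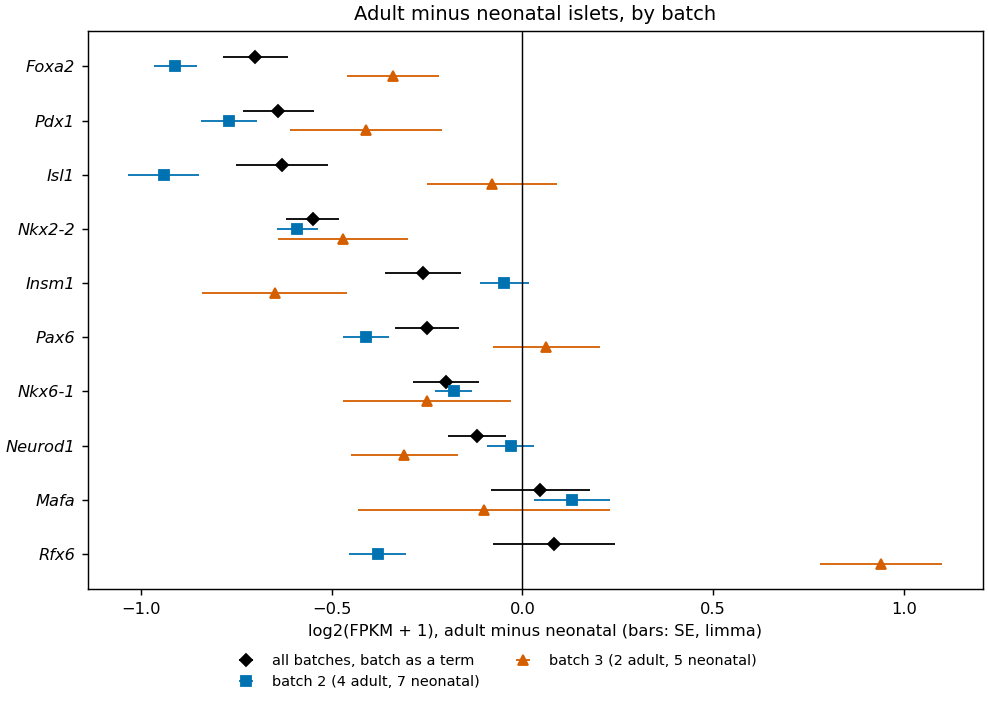
Difference in log2(FPKM + 1), adult minus neonatal, for each factor from all batches with batch as a term (diamonds), batch 2 alone (squares) and batch 3 alone (triangles); bars are limma standard errors. Foxa2, Pdx1 and Nkx2-2 lie left of 0 in all 3 fits, and Rfx6 lies on opposite sides of 0 in the 2 batches.

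The 4 largest differences were those of Foxa2, Pdx1, Isl1 and Nkx2-2. Foxa2, a forkhead pioneer factor of endoderm that opens chromatin in liver and pancreas, had 18.1, 19.7, 20.4 and 18.9 FPKM in the adult libraries of batch 2 and 36 and 31.4 FPKM in those of batch 3. Neonatal Foxa2 ran from 33.3 to 40.9 FPKM in batch 2 and from 37 to 51.3 FPKM in batch 3. Within each batch every adult library was below every neonatal one, although adult replicate 5 of batch 3, at 36 FPKM, lay within the neonatal range of batch 2, and replicate 6, at 31.4 FPKM, lay below it. The difference was -0.70 ± 0.086 on the log2 scale (SE, adjusted p = 7.16e-08, limma).

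Pdx1, the homeodomain factor that pancreas formation requires and that later binds the insulin gene, had 78.1, 88.7, 75.1 and 73.5 FPKM in adult libraries of batch 2 and 119 and 107 FPKM in those of batch 3. Neonatal Pdx1 ran from 121 to 158 FPKM in batch 2 and from 108 to 202 FPKM in batch 3. The ages did not overlap in batch 2, and in batch 3 neonatal large replicate 14 lay between the 2 adult libraries. The difference was -0.64 ± 0.093 (log2, SE, adjusted p = 1.13e-06, limma).

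Isl1, a LIM homeodomain factor needed to form endocrine cells of every hormone type, had 22, 21.3, 30 and 27.4 FPKM in adult libraries of batch 2, but 38.9 and 48.4 FPKM in those of batch 3. Neonatal Isl1 ran from 42.7 to 53.8 FPKM in batch 2 and from 36.2 to 50.7 FPKM in batch 3. Adult libraries were all below neonatal ones in batch 2, and in batch 3 the 2 ages were mixed. Over all batches the difference was -0.63 ± 0.12 (log2, SE, adjusted p = 4.42e-05, limma), while batch 3 alone gave -0.079 and no call.

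Nkx2-2, a homeodomain factor that β cells need to form and to keep their identity, had the smallest adult SD. It had 58.1, 59.6, 57.5 and 54 FPKM in adult libraries of batch 2 and 63.7 and 62.8 FPKM in those of batch 3. Its 20 neonatal libraries ran from 68.8 to 107 FPKM with a median of 89.4 FPKM. No adult library reached any of the 20 neonatal ones, whereas Foxa2, which was also below the neonatal libraries within each batch, overlapped across batches. The difference was -0.55 ± 0.069 (log2, SE, adjusted p = 1.17e-07, limma). Foxa2, Pdx1, Isl1 and Nkx2-2 remained called under all 3 other scalings tried, with differences of -0.50, -0.43, -0.43 and -0.34 after median-of-ratios rescaling, where the median of all genes was 0.019.

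The stretches just before RefSeq start sites of these 4 genes are shown because the 4 fell together, and that of Rfx6 because it did not. Each line gives the 250 bases before a RefSeq start site in the direction of transcription, 5′ to 3′, and capitals mark the letters TAAT on either strand, the core that many homeodomain factors such as Pdx1 and Isl1 recognise. On the opposite strand the core reads ATTA. Foxa2 has 3 RefSeq windows, and the one farthest upstream is shown. By the GENCODE M21 gene spans given further below, the Rfx6 and Nkx2-2 windows lie inside the gene. The Pdx1 window runs across the GENCODE start of its gene.
Foxa2 promoter (GRCm38.p6, chr2:148046970-148047219, minus strand): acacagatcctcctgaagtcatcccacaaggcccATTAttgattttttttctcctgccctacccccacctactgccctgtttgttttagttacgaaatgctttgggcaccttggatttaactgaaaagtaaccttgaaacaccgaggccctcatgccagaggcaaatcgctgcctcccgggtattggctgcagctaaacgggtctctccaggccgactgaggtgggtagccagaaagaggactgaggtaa
Pdx1 promoter (GRCm38.p6, chr5:147269847-147270096, plus strand): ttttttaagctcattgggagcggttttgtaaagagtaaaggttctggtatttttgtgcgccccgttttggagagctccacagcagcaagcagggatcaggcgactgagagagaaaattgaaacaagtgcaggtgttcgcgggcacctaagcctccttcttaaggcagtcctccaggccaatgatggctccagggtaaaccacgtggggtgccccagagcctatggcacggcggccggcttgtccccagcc
Isl1 promoter (GRCm38.p6, chr13:116309689-116309938, minus strand): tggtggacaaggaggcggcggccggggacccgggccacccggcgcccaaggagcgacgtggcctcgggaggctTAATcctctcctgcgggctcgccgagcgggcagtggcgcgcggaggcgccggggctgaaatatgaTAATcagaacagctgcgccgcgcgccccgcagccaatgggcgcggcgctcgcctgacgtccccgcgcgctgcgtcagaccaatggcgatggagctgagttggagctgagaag
Nkx2-2 promoter (GRCm38.p6, chr2:147186403-147186652, minus strand): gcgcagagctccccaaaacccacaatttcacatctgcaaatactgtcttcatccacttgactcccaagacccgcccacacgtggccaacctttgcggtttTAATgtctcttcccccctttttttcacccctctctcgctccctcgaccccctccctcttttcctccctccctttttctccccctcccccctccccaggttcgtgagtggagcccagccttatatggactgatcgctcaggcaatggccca
Rfx6 promoter (GRCm38.p6, chr10:51685268-51685517, plus strand): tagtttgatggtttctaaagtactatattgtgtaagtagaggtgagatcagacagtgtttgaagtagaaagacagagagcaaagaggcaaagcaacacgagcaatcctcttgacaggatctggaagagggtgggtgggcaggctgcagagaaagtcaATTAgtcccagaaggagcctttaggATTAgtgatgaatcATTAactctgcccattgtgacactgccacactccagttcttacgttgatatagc
The core occurred 1 time in the Foxa2 window shown (0 and 2 times in the other Foxa2 windows), 0 times before Pdx1, 2 times before Isl1, 1 time before Nkx2-2 and 3 times before Rfx6. Over all 32851 RefSeq mouse promoter windows of this length, 54.9% hold it at least once. The E-box CANNTG, which basic helix-loop-helix factors such as Neurod1 bind, occurred 3 times before Pdx1 and 3 times before Nkx2-2, 1 time before Isl1, and 0 times in the Foxa2 and Rfx6 windows shown (0 and 1 times in the other Foxa2 windows), against 66.2% of all windows with at least 1. The forkhead word TGTTTAC was in none of the 5 windows and in 3.17% of all windows. These matches are descriptions of letters in short windows, with both strands read and overlapping matches counted. RefSeq windows were found for 8 of the 10 members, and Mafa and Insm1 are named only.

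Pax6, Insm1 and Nkx6-1 fell by less, and their calls depended on the scaling. Pax6, a paired-domain factor needed for hormone gene expression in α and β cells, had 48.7, 48.6, 54.9 and 54.5 FPKM in adult libraries of batch 2 and 69.2 and 66.3 FPKM in those of batch 3. Neonatal Pax6 ran from 65.1 to 79.1 FPKM in batch 2 and from 55.8 to 72.6 FPKM in batch 3. Adult libraries were all lower in batch 2 and lay within the neonatal range in batch 3. The difference was -0.25 ± 0.084 (log2, SE, adjusted p = 0.0118, limma).

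Insm1, a zinc-finger factor needed for endocrine differentiation, had 87.7, 86.3, 73.6 and 72.7 FPKM in adult libraries of batch 2 and 53.2 and 49.3 FPKM in those of batch 3. Neonatal Insm1 ran from 70.9 to 90.4 FPKM in batch 2 and from 58.3 to 116 FPKM in batch 3. The ages overlapped in batch 2, and both adult libraries of batch 3 lay below all neonatal ones there. The difference was -0.26 ± 0.10 (log2, SE, adjusted p = 0.0253, limma). Without adult replicate 5 the difference was -0.20 and without adult replicate 6 it was -0.18, and the call was lost each time.

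Nkx6-1, a homeodomain repressor that keeps β cells from taking on α cell features, had 101, 100, 110 and 113 FPKM in adult libraries of batch 2 and 122 and 114 FPKM in those of batch 3. Neonatal Nkx6-1 ran from 105 to 138 FPKM in batch 2 and from 89.4 to 207 FPKM in batch 3. The ages overlapped in both batches. The difference was -0.20 ± 0.086 (log2, SE, adjusted p = 0.0432, limma), close to the threshold. It was not called when neonatal small replicate 6 or 9, large replicate 15, 16, 17, 19 or 20, or adult replicate 1, 2, 5 or 6 was left out, with an adjusted p of up to 0.0923, nor in batches 2 and 3 fitted without batch 1. After median-of-ratios rescaling Pax6, Insm1 and Nkx6-1 had differences of -0.043, -0.053 and 0.0057, none of them called, and quantile normalization, with a median of all genes of 0.061, gave -0.12, -0.13 and -0.041 with no call either.

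**Figure D3:**
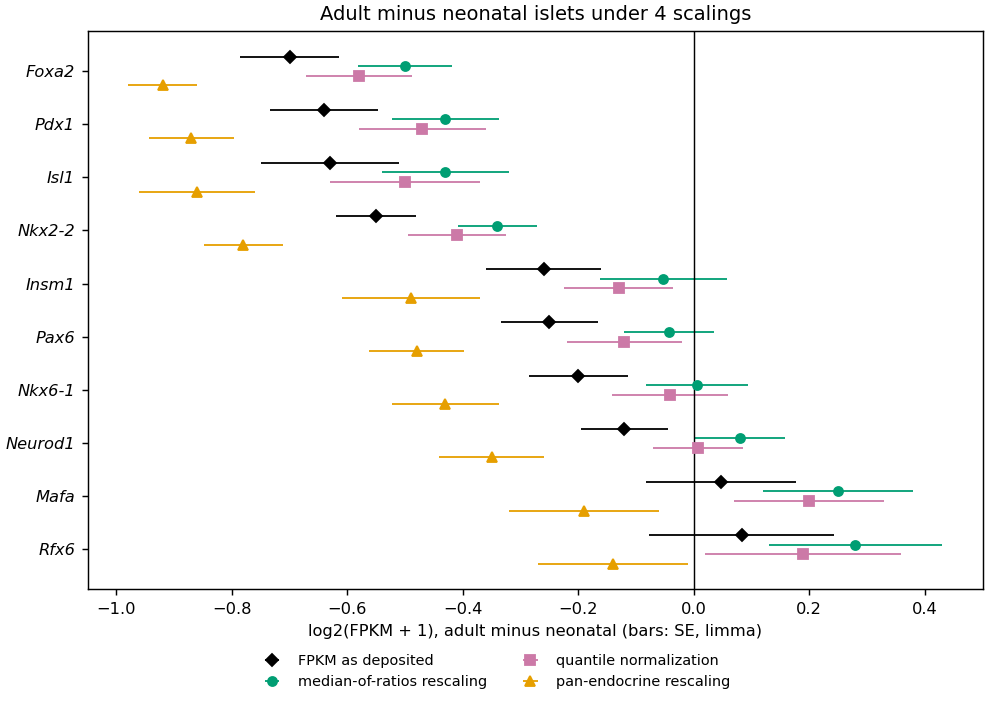
Difference in log2(FPKM + 1), adult minus neonatal, for each factor with the FPKM as deposited (diamonds) and after median-of-ratios rescaling (circles), quantile normalization (squares) and rescaling by 7 pan-endocrine genes (triangles); bars are limma standard errors. Foxa2, Pdx1, Isl1 and Nkx2-2 lie below 0 under all 4, whereas Nkx6-1 lies at 0.0057 under median-of-ratios rescaling.

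Mafa, Neurod1 and Rfx6 did not pass the test. Mafa, a basic leucine zipper activator of insulin and of glucose sensing, had 136, 135, 136 and 111 FPKM in adult libraries of batch 2 and 148 and 111 FPKM in those of batch 3, and neonatal libraries ran from 91.2 to 151 FPKM in batch 2 and from 84.3 to 209 FPKM in batch 3. Adult libraries lay inside the neonatal range in both batches, and the difference was 0.047 ± 0.13 (log2, SE, adjusted p = 0.755, limma). Neurod1, a basic helix-loop-helix activator of insulin, ran from 59.7 to 79.9 FPKM with a median of 74.2 FPKM in adult libraries and from 60.4 to 94.5 FPKM with a median of 77 FPKM in neonatal ones. Its difference was -0.12 ± 0.076 (log2, SE, adjusted p = 0.156, limma).

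Rfx6, a winged-helix factor that acts downstream of Neurog3 in endocrine cells and is needed in mature β cells, gave opposite pictures in the 2 batches. It had 23.9, 23.9, 29.5 and 27.1 FPKM in adult libraries of batch 2, against 30.2 to 39.1 FPKM in neonatal ones. In batch 3 it had 49.4 and 55.1 FPKM in adult libraries, against 22.2 to 33 FPKM in neonatal ones. All adult libraries were below all neonatal ones in batch 2 and above all of them in batch 3. The difference over all batches was 0.083 ± 0.16 (log2, SE, adjusted p = 0.654, limma).

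Because adult islets were present in 2 batches, the age difference could be tested for being equal in both. It differed in 5 of the 10 factors, where 44.9% of all genes differed in the same test (25.9% lower and 19.1% higher in batch 2 than in batch 3). Rfx6 had a difference of -0.39 in batch 2 and 0.95 in batch 3, and the batch 2 minus batch 3 difference was -1.33 ± 0.16 (log2, SE, adjusted p = 6.42e-06, limma). Isl1 had -0.94 in batch 2 and -0.07 in batch 3, Foxa2 had -0.91 and -0.32, and Pax6 had -0.41 and 0.075, in that order of batches, and each was called as lower in batch 2. Pax6 and Foxa2 were not called in this test after pan-endocrine rescaling (-0.14 and -0.25), nor Insm1 after quantile normalization (0.41). Insm1 went the other way, with -0.035 in batch 2 and -0.61 in batch 3. Mafa, Pdx1, Nkx2-2, Nkx6-1 and Neurod1 were not called in this test, and Nkx2-2 was closest to equal among the factors that fell in the comparison of ages by more than 0.5, with -0.59 in batch 2 and -0.45 in batch 3.

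The groups were also compared within each batch without a model. In batch 2, 6 members had all 4 adult libraries below all 7 neonatal ones, where 44.2% of all genes did so, and none had them above, where 17.3% did. In batch 3, 3 members (Foxa2, Insm1 and Nkx2-2) had both adult libraries below all 5 neonatal ones, where 41.8% of all genes did so, and Rfx6 had them above, where 25.2% did. Summed pan-endocrine markers, 7 granule genes found in all hormone cells, ran from 9178 to 9879 FPKM in adult libraries of batch 2 and from 11147 to 11457 FPKM in those of batch 3, and mesenchymal markers from 30.6 to 43.5 and from 78.6 to 89 FPKM. Their part in the difference between batches was not tested. With 2 adult libraries in batch 3, a fit to that batch alone called 2 members, Rfx6 higher at 0.94 and Insm1 lower at -0.65, and a fit to batch 2 alone called 7 lower. The shares of all genes called in these 2 fits are not given here, so the 2 counts cannot be compared.

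The comparison of small with large neonatal islets asked whether islet size at postnatal day 5 went with factor levels. Nkx6-1 and Mafa rose in small over large islets and the other 8 members were not called, where 17.6% of all genes were called, 4.96% higher and 12.7% lower. The median difference of the 10 factors was 0.10 on the log2 scale, beside -0.039 for all genes. A fit of 14 libraries with library-name numbers as blocks also called Nkx2-2 and Pax6 higher, as given at the end. The share of all genes called in that fit is not given here, so these 2 further calls have no background beside them. The labels do not say that library-name numbers pair libraries. Nkx6-1 ran from 126 to 207 FPKM with a median of 143 FPKM in small islets, and from 89.4 to 147 FPKM with a median of 128 FPKM in large ones. Small islets did not overlap with large ones in batches 2 and 3 and overlapped in batch 1. The difference was 0.33 ± 0.077 (log2, SE, adjusted p = 0.0065, limma), with 0.25, 0.25 and 0.57 in batches 1, 2 and 3.

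Mafa ran from 110 to 209 FPKM with a median of 179 FPKM in small islets and from 84.3 to 172 FPKM with a median of 128 FPKM in large ones. In batch 1 the small islets had 184, 205, 179 and 206 FPKM and the large ones 172, 132, 128 and 164 FPKM, without overlap, while the sizes overlapped in batches 2 and 3. The difference was 0.34 ± 0.11 (log2, SE, adjusted p = 0.0378, limma), with 0.39, 0.33 and 0.28 in batches 1, 2 and 3. The call was lost when small replicate 1, 2, 3, 4, 6 or 9 or large replicate 11, 12, 14, 18 or 20 was left out, with an adjusted p of up to 0.0984.

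Insm1 was the next member by p. It ran from 71.1 to 116 FPKM in small and from 58.3 to 82.5 FPKM in large islets, and the sizes did not overlap in batches 2 and 3. The difference was 0.20 ± 0.089 (log2, SE, adjusted p = 0.121, limma), which was not called. In batch 1, 1 member (Mafa) had all small islets above all large ones, where 13.6% of all genes did so. In batch 2, 2 did (Insm1 and Nkx6-1), where 2.23% of all genes did, and in batch 3, 3 did (Foxa2, Insm1 and Nkx6-1), where 7.94% did. No member had all small islets below all large ones, as 21.1% of all genes did in batch 1, 6.84% in batch 2 and 8.6% in batch 3.

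Fitted on batches 2 and 3 without batch 1, Nkx6-1 had 0.38 and Mafa 0.31, about as large as over all batches, but neither was called: in this smaller fit limma called 0 members and 0 of all genes, with 2 members and 1355 genes at an unadjusted p under 0.05. Mesenchymal markers moved with islet size as well: 5 of 7 tested were lower in small islets, among them Col1a1 at -1.20 and Dcn at -1.50, and their sum ran from 117 to 505 FPKM in small and from 183 to 1152 FPKM in large islets. The 2 batch 1 groups also differed in depth, with 13.56 M to 15.8 M fragments in small and 18.19 M to 20.01 M in large islet libraries. The part of either in the differences of Nkx6-1 and Mafa was not tested.

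**Figure D4:**
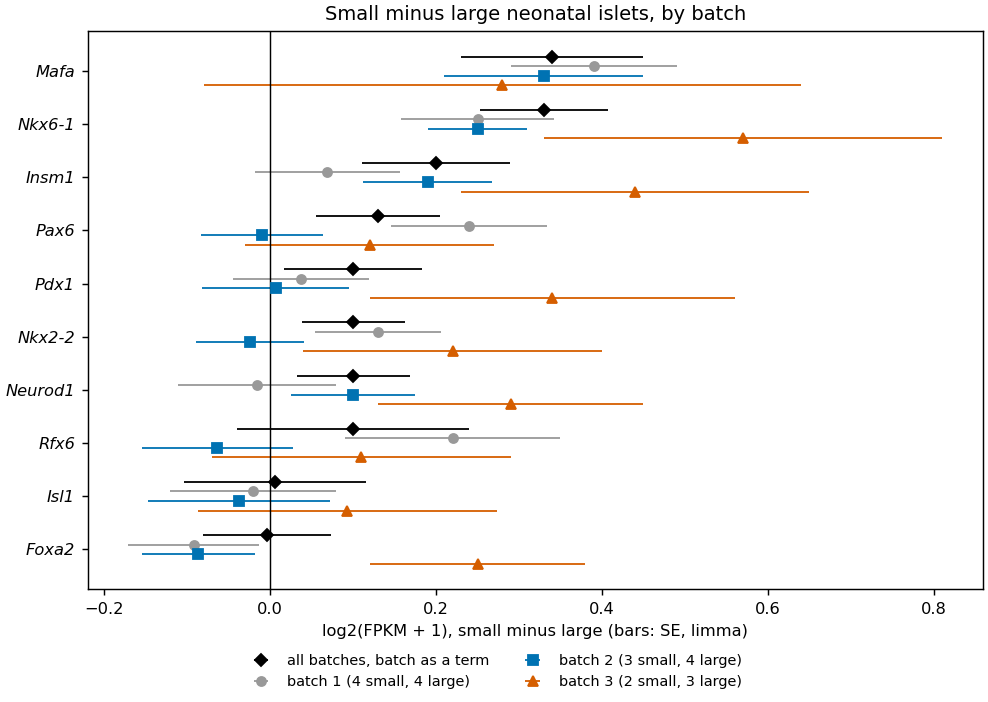
Difference in log2(FPKM + 1), small minus large neonatal islets, for each factor from all batches with batch as a term (diamonds) and from batch 1 (circles), batch 2 (squares) and batch 3 (triangles) alone; bars are limma standard errors. Nkx6-1 and Mafa lie right of 0 in all 4 fits, with the longest bars in batch 3.

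Set against each size on its own, adult islets had 7 factors lower than in small islets and 4 lower than in large ones, and none higher. Against small islets 63% of all genes were called, 43.1% lower and 19.9% higher, and against large islets 67.2% were called, 46.9% lower and 20.2% higher. Foxa2 had -0.70 against both sizes and Isl1 -0.63 against both. Pdx1 had -0.69 against small and -0.59 against large islets, and Nkx2-2 had -0.60 and -0.50. Nkx6-1 had -0.36 ± 0.10 against small islets (SE, adjusted p = 0.00204, limma) and -0.035 ± 0.091 against large ones (adjusted p = 0.749, limma), and the gap between these is the difference between sizes given above. Insm1 had -0.35 against small and -0.16 against large islets, and Pax6 had -0.31 and -0.18, called against small islets alone. Both comparisons use the same 6 adult libraries. Without small replicate 2, large replicate 13, large replicate 14, adult replicate 5 or adult replicate 6, Pax6 was also called lower against large islets.

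Several factors of α cells and of precursor cells were also lower in adult islets. The α cell factors Pou3f4 at -1.81, Irx1 at -1.28 and Irx2 at -0.99 on the log2 scale fell (limma), and they fell under each of the 3 other scalings. Irx1, an Iroquois homeodomain factor, had 3.72 to 7.4 FPKM in adult and 10.6 to 27.2 FPKM in neonatal libraries, and Irx2, of the same family, had 6.89 to 11.9 FPKM in adult and 13.5 to 30 FPKM in neonatal libraries. Pou3f4 was near the floor, with 0.285 to 0.598 FPKM in adult and 1.44 to 5.98 FPKM in neonatal libraries. Hhex, the δ cell factor, had -1.50, also called lower, with 3.76 to 7.85 FPKM in adult and 14.9 to 27.4 FPKM in neonatal libraries. Of 12 progenitor and precursor factors listed, 9 were tested and 8 fell, where 46.8% of all genes fell. Fev, on in endocrine precursors, had -1.75, Sox9, a factor of progenitor and duct cells, -1.75, the Notch target Hes1 -1.10 and Neurog3, which starts endocrine differentiation, -0.85. Prox1 was not called at 0.022, but was called higher at 0.22 after median-of-ratios rescaling, where 6 of the 9 fell.

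Of 16 other islet factors tested, 11 fell, 2 rose and 3 were not called, where 46.8% of all genes fell and 21.1% rose. The count falling was 7 with median-of-ratios scaling and 6 with quantile normalization. Mnx1, a homeodomain factor of β cells, had the largest of these falls at -1.69, with 4.27 to 11.6 FPKM in adult and 18.2 to 44.1 FPKM in neonatal libraries. Ldb1, the cofactor that Isl1 recruits, had -0.72. Hnf4a, a nuclear receptor mutated in inherited diabetes, and St18 both rose by 0.51. St18 was higher without overlap in both batches, but Hnf4a turned between them, at 1.00 in batch 2 and -0.34 in batch 3 without overlap in either, and was not called after pan-endocrine rescaling. The summed markers of other cells moved too: endothelial markers ran from 128 to 162 FPKM in adult and from 332 to 522 FPKM in neonatal libraries, mesenchymal ones from 30.6 to 89 and from 117 to 1152, and dividing-cell ones from 3.68 to 8.55 and from 86.3 to 151. All 6 endothelial, 6 of 7 mesenchymal and all 5 dividing-cell markers tested fell, under all 4 scalings. Their part in the differences of the factors was not tested.

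Named by the size of their difference, Pecam1 (-1.94), Cdh5 (-2.48), Kdr (-1.16), Esam (-1.47) and Plvap (-1.32) led the endothelial list. Col1a1 (-2.34), Col1a2 (-2.16), Col3a1 (-2.57), Pdgfrb (-1.96) and Acta2 (-2.28) led the mesenchymal one, and Mki67 (-3.65), Top2a (-3.72), Cdk1 (-3.20), Ccnb1 (-3.06) and Birc5 (-2.13) the dividing-cell one. Among duct markers Krt19 had -1.69 and Spp1 -1.36, with 5 of 5 lower as deposited and 3 of 5 after median-of-ratios rescaling. The Schwann cell factor Sox10 had -1.06, the ε cell hormone Ghrl -4.12, Rbp4 of δ cells -1.56 and Gc of α cells 1.54. The α cell list, led by glucagon, ran from 16625 to 33041 FPKM in adult and from 5505 to 26943 FPKM in neonatal libraries. The α cell hormone gene Gcg rose by 0.47, but the ages overlapped in both batches, and it was not called after quantile normalization (0.015) or pan-endocrine rescaling (0.24). No acinar marker was called of 7 tested by limma.

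Among genes known as targets of these factors, calls as deposited ran in the other direction. Of 16 targets tested 9 rose in adult islets, none fell and 7 were not called, where 21.1% of all genes rose and 46.8% fell. The median difference of the targets was 0.33 beside -0.16 for all genes. The 16 targets include all 7 β cell markers, of which 5 rose, so the target list largely repeats that list. In the test of the age difference between batches, 8 of the 16 were called lower in batch 2 and 1 higher. Of all genes, 25.9% and 19.1% were. Ero1lb, an oxidase that folds proinsulin, rose by 1.76, with 424 to 508 FPKM in adult and 68.7 to 187 FPKM in neonatal libraries. Ucn3, a secreted peptide used as a mark of mature β cells, rose by 1.24, with 257 to 359 FPKM in adult and 80.4 to 166 FPKM in neonatal libraries. Neither overlapped between ages. Ins2 rose by 0.62, Iapp by 0.59, Glp1r by 0.49 and the zinc transporter Slc30a8 by 0.42, whereas Ins1 at -0.011 was not called. Ins2 and Iapp were higher without overlap in both batches. Quantile normalization gives genes of equal rank equal values in every library. It set Ins1 to 1.8e-15 and Ins2 to 4.4e-15, so neither could be called there whatever its level. Iapp had 0.14 after quantile normalization and was not called. Glp1r and Slc30a8 had 0.031 and 0.07 in batch 2, with overlap, and 1.35 and 1.06 in batch 3, without overlap, and neither was called after pan-endocrine rescaling (0.25 and 0.19). The count of targets rising was 12 with median-of-ratios scaling and 6 with quantile normalization, where Ins1 and Ins2 could not be called. It was 4, with 4 falling, under pan-endocrine rescaling. Of the 7 genes behind that rescaling, 5 rose and 1 fell as deposited (median 0.25), so it lowers adult values. Pcsk2 is both 1 of these 7 and a target. Ucn3 and Ero1lb were called under all 4 scalings.

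How the members varied together was described over the 26 libraries after each batch was centred on its mean. Pdx1, Nkx2-2, Foxa2 and Isl1 varied together, with Pearson r of 0.93 for Pdx1 with Nkx2-2, 0.93 for Pdx1 with Foxa2, 0.89 for Nkx2-2 with Foxa2 and 0.85 for Isl1 with Foxa2, and Isl1 had 0.72 with Pdx1 and 0.71 with Nkx2-2. Pax6 went with these 4 at 0.72 to 0.75, and also with Rfx6 at 0.67. Neurod1 went most closely with Insm1 (0.77) and Mafa with Nkx6-1 (0.65), while Mafa with Isl1 had -0.22 and Rfx6 with Insm1 -0.42. These values contain the difference between ages, and the libraries share their scaling, so they describe this set of libraries and carry no p.

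By the same measure each member had closely similar genes elsewhere in the table, and 3 are named for each. They were Ube2q1 (0.96), Chgb (0.95) and Dgcr2 (0.94) for Pdx1, Galnt2, Wdr6 and Ank (0.97 each) for Foxa2, Zfp282 (0.96), Smpd3 (0.95) and Aacs (0.95) for Nkx2-2, and Akap17b, Brd7 and Smarca1 (0.92 each) for Isl1. Pax6 was most like Myt1 (0.95), Rreb1 (0.92) and Trim14 (0.91), and Nkx6-1 most like Fxr2 (0.92), Sipa1l3 (0.91) and Setd1b (0.89). Insm1 was most like Adra2a, Foxo6 and Chpf (0.87 each), Neurod1 like Kctd13 (0.81), Insm1 (0.77) and Rab3b (0.75), and Mafa like Klc2 (0.79), Urgcp (0.78) and Zfhx2 (0.77). Rfx6 was most like Zcchc4 (0.94), 2310035C23Rik (0.93) and 4833420G17Rik (0.93). The neighbours of Mafa and Neurod1 lay less close than those of Pdx1 or Foxa2.

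The authors' deposited table gives its own log2 fold change for each gene, which runs the other way, neonatal over adult. In the authors' deposited table Foxa2 had 0.48 (FDR 2.81e-05), Pdx1 0.40 (FDR 0.000865), Isl1 0.38 (FDR 0.00605) and Nkx2-2 0.31 (FDR 0.00103), all higher in neonatal islets. Rfx6 had -0.38 (FDR 0.0338) in the authors' deposited table, lower in neonatal islets, and Mafa -0.29 (FDR 0.105). Nkx6-1 (-0.042), Pax6 (-0.004) and Insm1 (0.0045) were near 0 in the authors' deposited table. The fit of the FPKM as deposited called these 3 lower in adult islets, and the fits after median-of-ratios rescaling and quantile normalization called none of them. None of the 10 carries the UP or DOWN mark of the authors' deposited table. How the authors scaled the libraries for that comparison, and whether they used the batches, is not given in the sources used here.

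By GENCODE M21 annotation of mm10, the genes lie at chr15:75745490-75748228 for Mafa, chr5:147269959-147275848 for Pdx1, chr2:147177546-147194243 for Nkx2-2, chr5:101658139-101664996 for Nkx6-1 and chr2:79452521-79456751 for Neurod1. Pax6 lies at chr2:105668900-105697364, Isl1 at chr13:116298281-116309689, Foxa2 at chr2:148042877-148046969, Rfx6 at chr10:51677756-51730432 and Insm1 at chr2:146221921-146225020. Chromosome 2 thus carries 5 of the 10. Exons of Nkx2-2 overlap those of its antisense gene Nkx2-2os, and exons of Neurod1 overlap those of Gm26755 on the other strand and of Cerkl on the same strand. Whether the authors counted by strand, and how they counted reads in exons shared between genes, is not given in the sources used here. Without strand, reads of a gene and its antisense partner cannot be told apart, and strand does not separate Neurod1 from Cerkl. The levels of Nkx2-2 and Neurod1 may therefore include reads of these other genes or lack reads of their own.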

How the data were processed

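RNA of 26 libraries (6 adult, 9 neonatal small, 11 neonatal large) was grouped by the sample titles, with ages from the labels' protocol and the 3 batches as labelled. The authors deposited FPKM for 13641 genes; per the submitters' processing notes mm10, STAR 2.6a, HTSeq 0.11.1 and edgeR were used, with no role given. The gene lengths, annotation, filters and library scaling are not given in the sources used here. The authors also deposited statistics of their own for neonatal over adult islets: the log2 fold change, the average log2 CPM, a score (F) with a p-value, and an FDR. Of the gene names, 20 had become dates and were fitted but not named.

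Genes with at least 1 FPKM in at least 6 libraries were kept (13402, all 10 members among them), and log2(FPKM + 1) was fitted with limma 3.58.1 in R 4.3.3 (group and batch terms, eBayes with trend and robust). Differences understate the change of low genes on this scale. Contrasts were adult minus neonatal (mean of the 2 sizes), small minus large, adult minus each size and, on batches 2 and 3, the age difference in batch 2 minus that in batch 3. Two-sided p-values were adjusted by Benjamini-Hochberg over all genes kept, and called under 0.05. Within-batch values in the text are differences of mean log2 values, and values of fits to 1 batch are named as such. Tested on simulated data of 13402 genes, the fit found 79% of changes of 0.5 and 99% of changes of 1 (log2) between adult and neonatal islets, 93% and 99% between small and large, and 21% and 74% for the difference between batches. In each simulation 100 genes were changed by each amount and the rest by none, with no batch effect and independent normal noise. These shares need not hold for the real data, where far more genes were called.

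Whole fragments were recovered from the FPKM for 99.8% of genes within 0.03, in Python 3.11.15, and served to state depth. The 21 genes not recovered are not in the totals. No count model was run on them.

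Named genes were the 10 members, α cell factors, genes of the 18 lists called between adult and neonatal islets with a difference of at least 1, and, for each member, the 3 genes most correlated with it. Some genes that this rule names, and results that need them, are not reported here. Other genes named were chosen after their values were seen. Members and lists were chosen with earlier results of these data known. Alternatives were other pseudocounts, scalings, filters, variance settings and batch handling, each library left out, and replicate blocks. Leaving out adult replicate 1 with large replicate 14, and batches 2 and 3 alone, were added after seeing the data.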

Additional observations from a re-analysis of the deposited data

Results flagged for a closer look

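The age difference of 5 factors was not the same in batch 2 and batch 3 by an interaction term in limma, fitted over all genes kept. Batch 2 minus batch 3, the difference between adult and neonatal islets was -0.48 for Pax6 (log2, adjusted p = 0.00569, limma), -0.87 for Isl1 (adjusted p = 0.000792, limma) and -0.59 for Foxa2 (adjusted p = 0.00165, limma). It was -1.33 for Rfx6 (adjusted p = 6.42e-06, limma) and 0.58 for Insm1 (adjusted p = 0.0123, limma). The adult libraries numbered 4 in batch 2 and 2 in batch 3, and 44.9% of all genes were called in the same test. Without adult replicate 6, Insm1 had 0.53 and was not called. Pdx1 was called, at -0.51, without neonatal small replicate 6, and Neurod1, at 0.31, without neonatal large replicate 14. Dixon's test found 0 outlying libraries in 20 groups checked, the 6 adult and the 9 small libraries of each member, pooled over batches. The 11 large libraries were not checked. Differences between batches widen the range of a pooled group, so the test could miss libraries outlying within a batch.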

How the results depend on the processing

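Under the alternatives tried, Foxa2, Pdx1, Isl1 and Nkx2-2 were called lower in adult than in neonatal islets by every fit except that of batch 3 alone. As deposited 7 members were called, and 7 without the 2 libraries highest in acinar markers, but 4 by median-of-ratios, 4 by quantile normalization and 2 in batch 3 alone. The share of all genes called in batch 3 alone is not given here. The differences that changed sign between these ages were those of Nkx6-1 (0.0057) and Neurod1 (0.08) by median-of-ratios, Neurod1 (0.0082) by quantiles, Mafa (-0.19) and Rfx6 (-0.14) after pan-endocrine rescaling, Mafa without a batch term (-0.14) and without those 2 libraries (-0.024), Rfx6 in batch 2 alone (-0.38), and Mafa (-0.10) and Pax6 (0.063) in batch 3 alone. Among all genes, 2824 were higher and 6272 lower as deposited, against 4664 and 4475 by median-of-ratios, 5021 and 4026 by quantiles and 1338 and 8425 after pan-endocrine rescaling, where the median of all genes was -0.35. The cause of these splits was not tested. Of the 7 pan-endocrine genes, 5 were higher and 1 lower in adult islets as deposited, so rescaling by them lowers adult values. 

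Between small and large islets, 2 members and 2363 genes were called. With other settings these were 1 member after pan-endocrine rescaling, 1 member and 566 genes without a batch term, 1 member without those 2 libraries, 1569 genes at a minimum of 5 FPKM (fewer genes tested), and 4953 genes in batch 1 alone. Limma called 0 members and 0 genes in batch 2 alone (3 members and 1496 genes at an unadjusted p under 0.05), in batch 3 alone (1 and 556) and in both together (2 and 1355). The split of 665 higher and 1698 lower was 1082 and 1100 by median-of-ratios, 1475 and 1189 by quantiles and 296 and 1287 after pan-endocrine rescaling. Signs turned for Foxa2 (0.038 by median-of-ratios, 0.012 by quantiles, 0.25 in batch 3, 0.057 in batches 2 and 3), Isl1 (-0.012 without a batch term, -0.021 in batch 1, -0.038 in batch 2), Neurod1 (-0.016 in batch 1), and Nkx2-2 (-0.024), Pax6 (-0.01) and Rfx6 (-0.064) in batch 2.

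Against small islets alone, 4 members were called after median-of-ratios rescaling and 3, with 5497 genes, in batch 3. Signs turned for Mafa (0.059) and Neurod1 (0.01) by median-of-ratios, Rfx6 (-0.19 pan-endocrine, -0.048 without a batch term, -0.35 in batch 2) and Pax6 (0.0015 in batch 3). Against large islets alone, 8 members were called after pan-endocrine rescaling, 7 in batch 2 and 1 in batch 3. The shares of all genes called in these fits to batch 2 and batch 3 against large islets are not given here. Signs turned for Nkx6-1 (0.19), Neurod1 (0.15), Pax6 (0.042) and Insm1 (0.066) by median-of-ratios, Nkx6-1 (0.16) and Neurod1 (0.085) by quantiles, Mafa (-0.016) and Rfx6 (-0.10) by pan-endocrine rescaling, Neurod1 (0.019), Rfx6 (-0.42) and Insm1 (0.045) in batch 2, and Nkx6-1 (0.033) and Pax6 (0.12) in batch 3. In the test between batches, signs turned for Mafa (-0.088) and Nkx6-1 (-0.24) by quantiles and Nkx2-2 (0.21) by pan-endocrine rescaling, where 2 members were called lower and 2 higher and the split of all genes, 2555 higher and 3468 lower as deposited, was 4530 and 1076. Higher and lower genes were 2668 and 5779 against small and 2713 and 6287 against large islets as deposited, 4322 and 4242, and 4666 and 4392, by median-of-ratios, 4547 and 3788, and 5135 and 4022, by quantiles, and 1278 and 7887, and 1292 and 8399, by pan-endocrine rescaling.

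With each library left out in turn, members called ranged from 5 to 7 and all genes from 8800 to 9313 between adult and neonatal islets, from 1 to 2 and 1410 to 2858 between sizes, from 7 to 8 and 8160 to 8779 against small, from 4 to 5 and 8715 to 9096 against large islets, and from 4 to 6 and 4472 to 6574 between batches. Uncalled differences that crossed 0 were Mafa (-0.0017 to 0.12) and Rfx6 (-0.087 to 0.17) between ages, Foxa2 (-0.035 to 0.025) and Isl1 (-0.044 to 0.042) between sizes, Rfx6 against small (-0.13 to 0.12) and large islets (-0.039 to 0.22), and Nkx6-1 between batches (-0.069 to 0.16).

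Libraries of small and large islets share numbers in their library names. Within batches, 6 of 7 such pairs deviated together at a correlation over 0.1 and 1 did not (-0.16). Of 14 libraries, 13 correlated best with their own number, a weak hint from the data and not from the labels. Each was compared only with the few paired libraries of the other size in its batch, so some would match by chance. Batch 3 had 2 small libraries, which mirror each other once centred on their mean. Of these, 1 counted as matching its own number at -0.16. With this number as a replicate block, 4 members were called higher in small islets (Mafa 0.31, Nkx6-1 0.40, Nkx2-2 0.21 and Pax6 0.23) and Foxa2 had 0.066. A block by the number in the sample titles, between adult and small islets, gave 7 called members, 1 higher and 6 lower, and Pax6 had 0.0015. These numbers pair no libraries (correlations of -0.10 to 0.14): 1 to 4 set adult libraries of batch 2 beside small ones of batch 1, so with batch as a term its values come from the 2 pairs of batch 3. The shares of all genes called in the 2 block fits are not given here, so their counts of members have no background beside them. The test between batches rests on 2 adult libraries in batch 3.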
